A study of Homo sapiens with 6 samples.

Results

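The 42 genes described here belong to the HIF pathway and the hypoxia response, out of 30099 genes with values in each library. They were taken by name and comprise 8 regulators of the hypoxia-inducible factors (HIF) and 34 genes known as hypoxia targets. The list was chosen with earlier results of these data known, so counts of its members give no independent check. The cells belong to a single established line of human breast cancer, MDA-MB-231. Pep2-E3 libraries (3, genotype given as Pep-E3) were compared with libraries of parental MDA-MB-231 (3, labelled as the control), and both carry the MDA-MB-231 background. What Pep-E3 alters, whether Pep2-E3 is a single clone, and the oxygen level in culture are not given in the sources used here. RNA sequencing gave a table of FPKM per library, a count of sequenced fragments divided by the kilobases of exon and by the fragments in the library.

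HIF is a pair of an oxygen-labile alpha subunit, HIF-1 alpha from HIF1A or HIF-2 alpha from EPAS1, and the stable partner encoded by ARNT. With oxygen, the EGLN prolyl hydroxylases mark the alpha subunit for ubiquitination by the VHL complex, and HIF1AN hydroxylates it to block coactivator binding. When oxygen falls, alpha subunits accumulate, bind the core sequence ACGTG or GCGTG near target genes and raise their transcription. In tumours the targets shift glucose to lactate, export acid, recycle mitochondria, modify collagen and draw in vessels. Alpha subunits are set largely at the protein level, which RNA does not report.

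Of the 42 members, 40 reached a mean of 0.5 FPKM over the 6 libraries and were tested. Of these, 16 were lower and 3 higher in Pep2-E3. The 16 lower members were HIF1A and 15 targets, and the 3 higher members were EPAS1 and the targets VEGFA and PDK3, of which PDK3 reached 0.5 FPKM only through Pep2-E3. Across all 14235 genes tested, 16.2% were lower, 14.6% higher, and 30.8% were called in either direction, by limma-trend on log2(FPKM + 1) with a threshold of 0.05 on the Benjamini-Hochberg adjusted p. The median log2 fold change of the 40 members was -0.10, against -0.02 over all genes tested. Among the 32 tested targets it was -0.24, with 15 lower and 2 higher. The 8 regulators had a median of -0.013, with 1 lower and 1 higher.

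The libraries held 17154511 to 18206694 fragments, so depths were within 1.06 times of each other. The labels do not say whether replicates came from separate cultures, and p-values here reflect library-to-library spread, which may be technical. Library replicate 1 of Pep2-E3 stood apart. Its mean chi-square per gene against Pep2-E3 replicates 2 and 3 was 15.3 and 20, against 2.68 to 3.90 between MDA-MB-231 libraries. Its deviation from the other Pep2-E3 libraries followed GC content, with a correlation of 0.489 across the 14235 genes, which are not independent, and a median of -0.31 (log2) in the fifth of genes with the lowest GC. Members in which this library lay far below the other Pep2-E3 libraries are given with and without it. Without it, 17 members were lower and 3 higher, and all 16 lower members remained lower, beside 17.9% of all genes lower and 16.3% higher. Leaving out a parental library lowered the count: 10 members were lower without replicate 1 of MDA-MB-231 (10.1% of all genes), 10 without its replicate 2 (9.1%) and 11 without its replicate 3 (10.8%). The defining markers CDH1 and ESR1 were at 0.0408 and 0.0280 FPKM in Pep2-E3 and 0.0361 and 0.0349 FPKM in MDA-MB-231. Of 8 epithelial and hormone receptor markers listed as low in MDA-MB-231, 4 averaged under 0.5 FPKM, but KRT19 stood at 93.8 FPKM in Pep2-E3 and 101 FPKM in MDA-MB-231 and CLDN4 at 19.3 FPKM in Pep2-E3 and 30.96 FPKM in MDA-MB-231. CLDN3 and CLDN4 were lower in Pep2-E3, the list summed to 114 to 128 FPKM in Pep2-E3 and 136 to 145 FPKM in MDA-MB-231, and its part in the results was not tested. Of 6 markers known to be high in MDA-MB-231, all had values in both groups, and 2 were called (33.3%, near the 30.8% of all genes tested). S100A4 was higher, at 12.4 FPKM in Pep2-E3 and 6.55 FPKM in MDA-MB-231 (log2 fold change 0.83 ± 0.08, adjusted p = 0.00128), and AXL was lower, at 206 FPKM in Pep2-E3 and 260.4 FPKM in MDA-MB-231 (-0.34 ± 0.08, adjusted p = 0.01697). Vimentin (VIM), not called, averaged 158 ± 5.82 FPKM in Pep2-E3 and 174 ± 4.89 FPKM in MDA-MB-231, and the 5 markers of blood, endothelial and liver cells with values summed to at most 0.143 FPKM in Pep2-E3 and 0.262 FPKM in MDA-MB-231.

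Promoter sequence is shown for 4 targets among those with the smallest p-values, to set windows that hold HIF cores (BNIP3, FAM162A and PDK3) beside that of PDK1, which holds none. BNIP3, FAM162A and PDK1 were lower and PDK3 higher in Pep2-E3. Each sequence comes from the 250 bases upstream of the start in the RefSeq promoter table (GRCh38.p14), less any bases that GENCODE 29 places inside the gene. It runs 5′ to 3′ on the gene's strand, with capitals marking ACGTG or GCGTG on either strand.
BNIP3 (chr10:131982014-131982173, minus strand): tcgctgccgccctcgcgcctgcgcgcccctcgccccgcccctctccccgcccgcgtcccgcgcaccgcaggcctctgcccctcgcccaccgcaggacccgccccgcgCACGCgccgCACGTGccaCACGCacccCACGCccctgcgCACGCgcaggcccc
FAM162A (chr3:122383932-122384175, plus strand): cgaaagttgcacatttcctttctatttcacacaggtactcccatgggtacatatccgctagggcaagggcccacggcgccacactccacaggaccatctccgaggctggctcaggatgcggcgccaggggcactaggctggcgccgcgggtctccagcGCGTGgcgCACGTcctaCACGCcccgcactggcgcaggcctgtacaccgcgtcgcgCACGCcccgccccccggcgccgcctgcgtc
PDK3 (chrX:24465036-24465220, plus strand): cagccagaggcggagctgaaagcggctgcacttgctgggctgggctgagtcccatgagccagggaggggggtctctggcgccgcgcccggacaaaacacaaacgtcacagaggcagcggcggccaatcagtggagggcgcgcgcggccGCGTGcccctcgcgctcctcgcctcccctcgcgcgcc
PDK1 (chr2:172555123-172555372, plus strand): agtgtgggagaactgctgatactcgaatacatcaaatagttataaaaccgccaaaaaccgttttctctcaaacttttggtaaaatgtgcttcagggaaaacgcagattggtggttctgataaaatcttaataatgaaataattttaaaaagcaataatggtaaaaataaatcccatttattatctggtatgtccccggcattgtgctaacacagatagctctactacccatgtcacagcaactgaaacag
BNIP3, a mitophagy receptor, held 6 cores within 44 bases, counted on both strands. A pair of these overlap as CACGTG, which reads as ACGTG on either strand and is also the E-box bound by other factors. In the full 250 bases FAM162A held 4 cores, PDK3 held 2, of which 1 is in the part shown, and PDK1 held none. CA12 and KDM3A held 1 each, in windows that GENCODE 29 places wholly inside the gene.

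Entries in that table matched 35 of the 42 members by symbol. ANKZF1, BNIP3L, LOXL2, NDRG1, SLC2A3, VEGFA and VHL had none. At least 1 core lay in the 250 bases upstream of 24 of 28 matched targets (85.7%) and of 4 of 7 matched regulators (57.1%). The share was 58.6% of the 9377 matched genes among those tested and 43.1% of all 27305 promoters of the table. ACGTG on either strand was in 60.7% of matched targets and 24.0% of matched tested genes, and GCGTG in 57.1% and 46.6%. Among targets, the share with a core was 10 of 12 in those lower in Pep2-E3 and 11 of 13 in those not called. The share was thus similar in targets that fell and in targets that were not called, and no test was made. A match is a run of letters, not a bound site, and HIF sites outside this window were not searched.

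HIF1A (ENSG00000100644, chromosome 14, 61695513 to 61748259 in GRCh38) had 49.1, 61.2 and 72 FPKM in Pep2-E3, against 79.5, 81.4 and 81.6 FPKM in MDA-MB-231, each in the order of replicates 1, 2 and 3. Every Pep2-E3 library was below every parental one, but the Pep2-E3 values were spread widely, with replicate 1 lowest. The mean was 60.8 ± 11.5 FPKM in Pep2-E3 and 80.8 ± 1.17 FPKM in MDA-MB-231 (SD, n = 3 each), and the fitted log2 fold change, taken on log2(FPKM + 1), was -0.42 ± 0.13 (SE; limma adjusted p = 0.0435). Without Pep2-E3 replicate 1 it was -0.28 ± 0.07 (adjusted p = 0.0238). After correction of the libraries for GC and length it was -0.28 ± 0.05 (adjusted p = 0.00469). The call was lost without Pep2-E3 replicate 2 (adjusted p = 0.0978) and without any 1 of the parental libraries (adjusted p = 0.103, 0.118 and 0.112). In bulk RNA, fewer cells that express a gene and less of its RNA per cell cannot be told apart.

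EPAS1, which encodes the HIF-2 alpha subunit (ENSG00000116016, chromosome 2, 46293667 to 46386703), went the other way. It had 7.17, 7.23 and 7.16 FPKM in Pep2-E3, against 5.88, 5.57 and 5.47 FPKM in MDA-MB-231. The groups did not overlap and the Pep2-E3 libraries were nearly identical. The level was 1.27-fold that of parental cells, with a log2 fold change of 0.30 ± 0.05 (adjusted p = 0.00709). In FPKM, HIF1A exceeded EPAS1 6.84, 8.46 and 10.1 times in Pep2-E3 replicates 1, 2 and 3, against 13.5, 14.6 and 14.9 times in MDA-MB-231 replicates 1, 2 and 3. The ratio was thus lower in all 3 Pep2-E3 libraries, and HIF1A remained the more abundant alpha transcript in every library. ARNT, the shared partner, had 7.601, 6.76 and 7.76 FPKM in Pep2-E3, against 8.39, 8.08 and 7.46 FPKM in MDA-MB-231. Its groups overlapped, and the log2 fold change of -0.10 ± 0.07 did not pass the test (adjusted p = 0.317), with a 95% interval of -0.27 to 0.07.

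Of the 5 genes of oxygen sensing and degradation, 0 were called by limma-trend, against 30.8% of all genes tested. At an unadjusted p under 0.05 there were 0, against 43.1% of all genes. Limma-voom on recovered fragments called 0, against 18.1% of all genes lower and 15.3% higher. The 5 genes were not tested as a set. VHL, the substrate-binding subunit of the ubiquitin ligase, had 19.1, 21.01 and 21.02 FPKM in Pep2-E3, against 20.7, 20.3 and 20.2 FPKM in MDA-MB-231. Its groups overlapped, with a log2 fold change of -0.0016 ± 0.05 and a 95% interval of -0.13 to 0.13. EGLN1, the main prolyl hydroxylase, had 6.27, 8.22 and 8.65 FPKM in Pep2-E3, against 8.15, 7.64 and 7.61 FPKM in MDA-MB-231. Pep2-E3 replicate 1 lay below the parental range, and Pep2-E3 replicates 2 and 3 lay above it. The log2 fold change was -0.02 ± 0.11, and 0.10 ± 0.05 without Pep2-E3 replicate 1 (adjusted p = 0.2), so its sign turned. The interval of -0.29 to 0.24 (log2) was the widest of the 5. EGLN2 had 1.35, 1.05 and 1.35 FPKM in Pep2-E3, against 1.29, 1.13 and 1.13 FPKM in MDA-MB-231. EGLN3, a prolyl hydroxylase that is itself a classic HIF target, had 0.895, 0.935 and 0.848 FPKM in Pep2-E3, against 1.07, 0.911 and 0.806 FPKM in MDA-MB-231. Both genes overlapped between groups, with 95% intervals of -0.17 to 0.26 for EGLN2 and -0.24 to 0.18 for EGLN3. HIF1AN, the asparaginyl hydroxylase, had 8.06, 6.96 and 7.28 FPKM in Pep2-E3, against 7.26, 7.08 and 7.15 FPKM in MDA-MB-231, and its interval was -0.11 to 0.20. In limma's test the adjusted p values of these 5 genes ran from 0.626 (HIF1AN) to 0.986 (VHL). In per-length level, VHL came first among them in every library, EGLN1 and HIF1AN lay close together, and EGLN2 and EGLN3 were lowest. FPKM divides by the union of all annotated exons, so genes with long rare exons read low, and 30.6% of EGLN2 exon bases are shared with the read-through gene RAB4B-EGLN2. The level of EGLN2 is therefore uncertain.

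**Figure D1:**
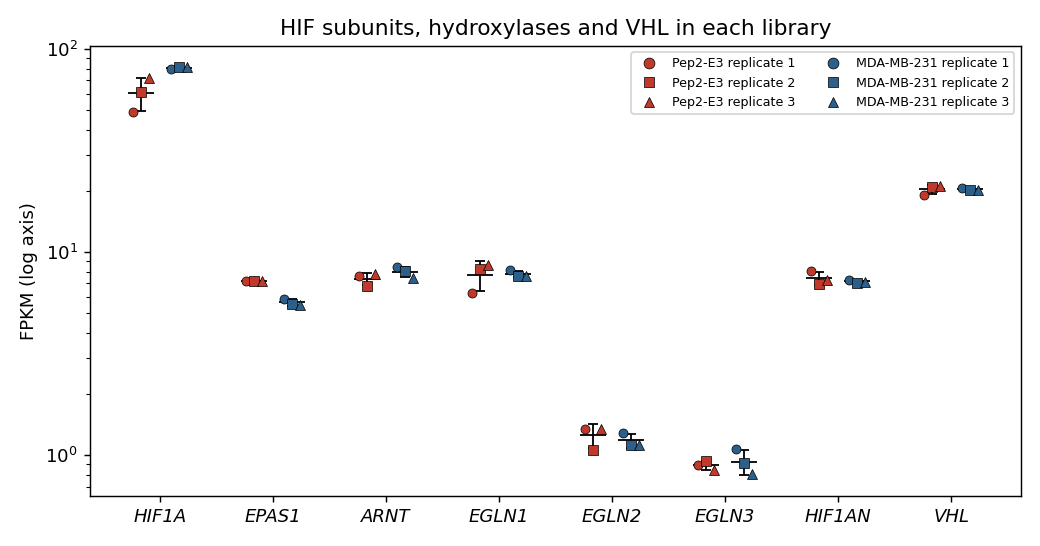
FPKM on a log axis of the 8 HIF regulators in each library, Pep2-E3 (red) left of MDA-MB-231 (blue), with symbols for replicates and bars for the mean and SD of 3 libraries. HIF1A lies lower and EPAS1 higher in all 3 Pep2-E3 libraries, while the groups of the other 6 genes overlap.

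A further list of 20 genes that act on HIF was read beside the regulators. Of its 19 tested members, 4 were higher and 6 lower in Pep2-E3, against 14.6% and 16.2% of all genes tested. The LIM protein AJUBA, a scaffold that can bring VHL and EGLN proteins together, averaged 35.7 ± 1.09 FPKM in Pep2-E3 and 22.5 ± 0.583 FPKM in MDA-MB-231 (log2 fold change 0.64 ± 0.05, adjusted p = 0.000463). LIMD1, another LIM protein of the list, went the other way, at 5.34 ± 0.553 FPKM in Pep2-E3 and 6.54 ± 0.352 FPKM in MDA-MB-231 (-0.25 ± 0.08, adjusted p = 0.0497). The coactivator CREBBP averaged 5.14 ± 0.293 FPKM in Pep2-E3 and 3.94 ± 0.256 FPKM in MDA-MB-231 (0.31 ± 0.07, adjusted p = 0.0152). Lower were SIAH2, a ubiquitin ligase for EGLN proteins (-0.37 ± 0.06, adjusted p = 0.00654), and FBXW7, an F-box adaptor reported to act on HIF-1 alpha (-0.55 ± 0.09, adjusted p = 0.00666). The VHL complex partners CUL2, ELOB, ELOC and RBX1 did not pass, with log2 fold changes of -0.07, 0.16, 0.12 and 0.12. The members of this list that passed thus lay in both directions.

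CA12 and CA9 encode membrane carbonic anhydrases that keep the cell surface acidic and the cytosol buffered. CA12 (ENSG00000074410, chromosome 15, 63321378 to 63382161) had 0.653, 0.894 and 0.909 FPKM in Pep2-E3, against 2.96, 2.84 and 2.75 FPKM in MDA-MB-231. The groups were far apart, and CA12 stood at 28.7% of the parental mean, the lowest share of the 15 targets that fell. Its log2 fold change was -1.08 ± 0.08 (adjusted p = 0.000542), and without Pep2-E3 replicate 1 it was -1.02 ± 0.07 (adjusted p = 0.000601). CA9, one of the most widely used hypoxia markers, was not detectable at this depth: it had 0, 0 and 0 fragments in Pep2-E3, against 0, 0 and 1 fragments in MDA-MB-231. The limit that a count of 0 allows is 3 fragments in a library, for counting error only, and 38.5% of CA9 exon bases overlap ARHGEF39 on the opposite strand.

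Of the 3 tested secreted factors, 1 was higher, against 14.6% of all genes tested, and 2 were not called. VEGFA, the main angiogenic growth factor (ENSG00000112715, chromosome 6, 43770184 to 43786487), had 9.598, 9.87 and 9.31 FPKM in Pep2-E3, against 5.98, 5.995 and 5.78 FPKM in MDA-MB-231. All Pep2-E3 libraries were well above all parental ones, and each group was tight. The rise was 1.62-fold, with a log2 fold change of 0.61 ± 0.05 (adjusted p = 0.000671). ADM, the vasodilator peptide adrenomedullin, had 13.1 to 13.7 FPKM in Pep2-E3, against 12.1 to 15.04 FPKM in MDA-MB-231. ANGPTL4, a secreted inhibitor of lipoprotein lipase, had 2.25, 2.097 and 1.97 FPKM in Pep2-E3, against 1.62, 1.57 and 1.86 FPKM in MDA-MB-231. ADM overlapped between groups, whereas ANGPTL4 did not overlap but missed the threshold (adjusted p = 0.0814, 95% interval 0.03 to 0.40). The ADM interval was -0.24 to 0.15. STC2, a secreted glycoprotein, lay below the limit for testing, with 18, 18 and 17 fragments in Pep2-E3, against 26, 18 and 15 fragments in MDA-MB-231.

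Glucose transport showed no detectable change. SLC2A1, the basal glucose transporter and with the highest FPKM of the 42 genes over the 6 libraries, had 81.9, 77.6 and 74.1 FPKM in Pep2-E3, against 77.8, 79.1 and 75.8 FPKM in MDA-MB-231. Its groups overlapped, with a 95% interval of -0.11 to 0.12 on the log2 scale (adjusted p = 0.953). SLC2A3, a high-affinity transporter, had 4.06 to 5.35 FPKM in Pep2-E3, against 4.24 to 5.08 FPKM in MDA-MB-231 (95% interval -0.30 to 0.20), and 21.4% of the runs of 50 bases in its exons are shared, mostly with SLC2A14. The paired enzymes that set fructose 2,6-bisphosphate differed in their calls. PFKFB4 had 2.33, 2.32 and 2.405 FPKM in Pep2-E3, against 4.17, 3.64 and 3.17 FPKM in MDA-MB-231. It fell 1.56-fold with no overlap (log2 fold change -0.47 ± 0.09, adjusted p = 0.00934). PFKFB3 had 22.1, 19.7 and 19.3 FPKM in Pep2-E3, against 22.2, 20.9 and 22.8 FPKM in MDA-MB-231, with overlapping groups and a log2 fold change of -0.11 ± 0.07 (adjusted p = 0.264). PFKFB3 was called lower without Pep2-E3 replicate 1 (-0.17 ± 0.05, adjusted p = 0.0449). AK4, a mitochondrial adenylate kinase, had 5.57, 6.13 and 7.12 FPKM in Pep2-E3, against 7.66, 6.95 and 7.52 FPKM in MDA-MB-231. It did not pass (adjusted p = 0.118), except without Pep2-E3 replicate 3 (log2 fold change -0.29, adjusted p = 0.0323).

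Pyruvate dehydrogenase kinases switch off entry of pyruvate into the mitochondrial citric acid cycle, and PDK1 and PDK3 are the isoforms best known as HIF targets. PDK1 (ENSG00000152256, chromosome 2, 172555373 to 172608669) had 1.16, 1.34 and 1.51 FPKM in Pep2-E3, against 2.84, 2.98 and 2.75 FPKM in MDA-MB-231. PDK3 (ENSG00000067992, chromosome X, 24465221 to 24541862) had 1.15, 1.18 and 1.29 FPKM in Pep2-E3, against 0.08898, 0.0555 and 0.0921 FPKM in MDA-MB-231. PDK1 was lower and PDK3 higher in every Pep2-E3 library than in every parental one. PDK1 fell 2.13-fold (log2 fold change -0.72 ± 0.08, adjusted p = 0.00158). PDK3 rose 15.3-fold in mean FPKM, and its fitted log2 fold change was 1.03 ± 0.09 (adjusted p = 0.000687). The log2(FPKM + 1) scale understates changes of genes this low. PDK3 passed the filter on low values only through Pep2-E3, its parental mean being 0.0789 FPKM, so it had to differ to be tested. Without the filter its adjusted p was 0.001904. The PDK3 level rested on 98, 101 and 110 fragments in Pep2-E3, against 8, 5 and 8 fragments in MDA-MB-231. With a pseudocount of 0.1 the PDK3 log2 fold change was 2.88, and limma-voom on recovered fragments gave 3.88.

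The other kinases of the family, PDK2 and PDK4, are not among the 42 genes and were added after the values of PDK1 and PDK3 had been seen. PDK2 had 1.94, 2.04 and 1.68 FPKM in Pep2-E3, against 2.16, 2.09 and 1.96 FPKM in MDA-MB-231. PDK4 had 0.619, 0.5504 and 0.877 FPKM in Pep2-E3, against 1.84, 1.97 and 1.703 FPKM in MDA-MB-231. PDK4 fell (log2 fold change -0.76 ± 0.10, adjusted p = 0.00274) and PDK2 did not pass (-0.09 ± 0.08, adjusted p = 0.406). Summed over the 4 kinases, the level was 5.12 ± 0.247 FPKM in Pep2-E3 and 6.84 ± 0.306 FPKM in MDA-MB-231. PDK3 made up 23.7%, 23.1% and 24.1% of that sum in Pep2-E3, against 1.28%, 0.781% and 1.42% in MDA-MB-231. PDK3 thus made up a larger share in every Pep2-E3 library than in any parental one. Exon unions differ in length between these genes (14883 bases for PDK1 and 4951 for PDK3), so shares on the FPKM scale depend on the annotation.

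**Figure D2:**
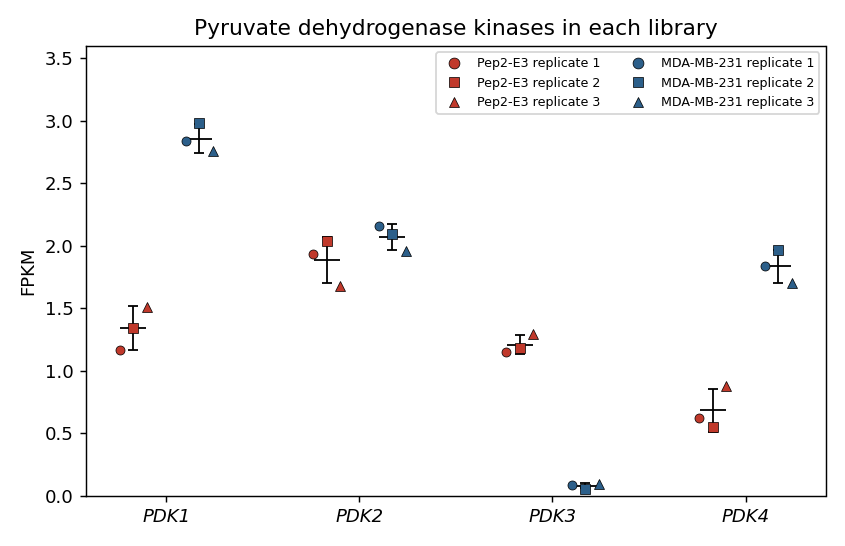
FPKM of the 4 pyruvate dehydrogenase kinases in each library, Pep2-E3 (red) left of MDA-MB-231 (blue), with symbols for replicates and bars for the mean and SD of 3 libraries. PDK1 and PDK4 are lower and PDK3 is higher in all 3 Pep2-E3 libraries, with PDK3 under 0.1 FPKM in every MDA-MB-231 library.

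All 3 members listed under mitochondria and mitophagy fell, against 16.2% of all genes tested. AK4, PDK1 and PDK3 were listed with glucose uptake and pyruvate fate. BNIP3 (ENSG00000176171, chromosome 10, 131966455 to 131982013), whose upstream sequence with 6 cores is shown above, had 26.3, 30.01 and 27.3 FPKM in Pep2-E3, against 48.3, 45.5 and 44.5 FPKM in MDA-MB-231. The groups were well separated, and BNIP3 fell 1.65-fold (log2 fold change -0.71 ± 0.06, adjusted p = 0.000812). FAM162A, a mitochondrial protein induced by HIF, had 5.88, 5.901 and 5.16 FPKM in Pep2-E3, against 7.97, 7.91 and 7.56 FPKM in MDA-MB-231. It fell 1.38-fold with no overlap (-0.41 ± 0.07, adjusted p = 0.005298). BNIP3L, the mitophagy receptor also called NIX, had 9.42, 14.2 and 16.1 FPKM in Pep2-E3, against 21.9, 20.9 and 20.97 FPKM in MDA-MB-231. Here Pep2-E3 replicate 1 was lowest by a wide margin, though no library of the groups overlapped. The log2 fold change was -0.68 ± 0.17 (adjusted p = 0.0253) and -0.47 ± 0.06 without Pep2-E3 replicate 1 (adjusted p = 0.00279). The BNIP3L call was lost without Pep2-E3 replicate 2 (adjusted p = 0.0511) and without MDA-MB-231 replicate 1, 2 or 3 (adjusted p = 0.07903, 0.0756 and 0.0698). Of the runs of 50 bases in BNIP3 exons, 11.04% are also found elsewhere, mostly in the pseudogene BNIP3P1, so its level is less certain.

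Of the 6 enzymes that modify collagen, 2 were lower, against 16.2% of all genes tested. P4HA1, the catalytic subunit of collagen prolyl 4-hydroxylase, had 12.2, 14.9 and 14.9 FPKM in Pep2-E3, against 19.4, 20.2 and 19.5 FPKM in MDA-MB-231. It fell 1.41-fold (-0.47 ± 0.08, adjusted p = 0.00703). LOX, the lysyl oxidase that crosslinks collagen, had 4.58, 7.01 and 7.62 FPKM in Pep2-E3, against 11.8, 11.7 and 10.8 FPKM in MDA-MB-231. Pep2-E3 replicate 1 was again lowest, and the log2 fold change was -0.77 ± 0.16 (adjusted p = 0.0122), or -0.58 ± 0.06 without that library (adjusted p = 0.00147). The related LOXL2 had 64.8, 61.2 and 59.9 FPKM in Pep2-E3, against 55.01, 57.8 and 56.9 FPKM in MDA-MB-231. LOXL2 lay higher in every Pep2-E3 library but did not pass (0.13 ± 0.05, adjusted p = 0.0865), except with the GC and length correction (0.11 ± 0.03, adjusted p = 0.0392). The lysyl hydroxylases PLOD1 and PLOD2 and the alternative subunit P4HA2 were not called, with 95% intervals of -0.14 to 0.16, -0.60 to 0.14 and -0.21 to 0.04. PLOD2 had 10.4, 15.1 and 16.6 FPKM in Pep2-E3, against 15.7, 17.8 and 15.7 FPKM in MDA-MB-231. Pep2-E3 replicates 1 and 2 lay below the parental range, and the PLOD2 log2 fold change was -0.23 ± 0.16 (adjusted p = 0.301), or -0.05 ± 0.07 without replicate 1 of Pep2-E3 (adjusted p = 0.646).

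Among regulators of chromatin and transcription, 3 of 5 fell, against 16.2% of all genes tested. The histone demethylase KDM3A had 3.104, 3.098 and 2.92 FPKM in Pep2-E3, against 4.47, 4.62 and 4.14 FPKM in MDA-MB-231. KDM4B, another histone demethylase, had 3.65, 3.12 and 2.99 FPKM in Pep2-E3, against 4.23, 4.57 and 4.12 FPKM in MDA-MB-231. MXI1, an antagonist of MYC, had 3.26, 4.81 and 4.998 FPKM in Pep2-E3, against 7.72, 6.84 and 6.67 FPKM in MDA-MB-231. In all 3 genes the groups did not overlap, and the log2 fold changes were -0.42 ± 0.06 for KDM3A, -0.32 ± 0.08 for KDM4B and -0.61 ± 0.14 for MXI1 (adjusted p = 0.00425, 0.0233 and 0.0172). KDM3A was called under every alternative tried. The KDM4B call was lost without Pep2-E3 replicate 2 or 3 (adjusted p = 0.0742 and 0.0562), without MDA-MB-231 replicate 1, 2 or 3 (adjusted p = 0.0685, 0.0893 and 0.0542) and with the replicate number as a block (adjusted p = 0.0561). The MXI1 call was lost without MDA-MB-231 replicate 1 or 2 (adjusted p = 0.0628 and 0.0543). BHLHE40, a circadian repressor, had 11.1 to 13.1 FPKM in Pep2-E3, against 10.5 to 11.4 FPKM in MDA-MB-231, and CITED2, which competes with HIF for CREBBP and EP300, had 44.2 to 52.1 FPKM in Pep2-E3, against 46.2 to 47.5 FPKM in MDA-MB-231. Both overlapped between the groups, with 95% intervals of -0.02 to 0.33 and -0.14 to 0.17.

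In the remaining group, 4 of 7 fell, against 16.2% of all genes tested. NDRG1, a stress-induced gene of the NDRG family and the member with the smallest p-value (ENSG00000104419, chromosome 8, 133237171 to 133302022), had 4.9, 4.699 and 4.77 FPKM in Pep2-E3, against 9.84, 9.81 and 10.03 FPKM in MDA-MB-231. ANKZF1, which acts in ribosome-associated quality control (ENSG00000163516, chromosome 2, 219229757 to 219236669), had 5.49, 5.95 and 5.48 FPKM in Pep2-E3, against 11.9, 12.1 and 10.8 FPKM in MDA-MB-231. Both stood close to 50% of the parental mean in every Pep2-E3 library. NDRG1 fell 2.07-fold (-0.91 ± 0.05, adjusted p = 0.000208) and ANKZF1 fell 2.06-fold (-0.93 ± 0.06, adjusted p = 0.000357). INSIG2, a sterol-sensing brake on SREBP, had 4.25, 5.84 and 6.23 FPKM in Pep2-E3, against 8.18, 8.34 and 7.997 FPKM in MDA-MB-231. DDIT4, an mTORC1 inhibitor, had 7.22, 7.42 and 6.63 FPKM in Pep2-E3, against 9.21, 8.3 and 8.37 FPKM in MDA-MB-231. Neither overlapped, with log2 fold changes of -0.52 ± 0.12 (adjusted p = 0.0179) for INSIG2 and -0.25 ± 0.07 (adjusted p = 0.02899) for DDIT4. Without Pep2-E3 replicate 1, INSIG2 was at -0.38 ± 0.05 (adjusted p = 0.00324). INSIG2 lost its call without MDA-MB-231 replicate 1, 2 or 3 (adjusted p = 0.0586, 0.0658 and 0.0527). DDIT4 lost it without Pep2-E3 replicate 2 or 3 (adjusted p = 0.0507 and 0.0639), without MDA-MB-231 replicate 1, 2 or 3 (adjusted p = 0.105, 0.0678 and 0.0671) and with the replicate block (adjusted p = 0.0639). Of the DDIT4 exon bases, 41.2% overlap a gene on the opposite strand, and the library kit does not mark strand.

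WSB1, a ubiquitin ligase subunit, had 8.63, 10.3 and 10.8 FPKM in Pep2-E3, against 12.3, 13.9 and 11.5 FPKM in MDA-MB-231. It lay lower in every Pep2-E3 library and narrowly missed the threshold (-0.31 ± 0.10, adjusted p = 0.0532), and it passed under 4 alternatives, namely without Pep2-E3 replicate 3 (adjusted p = 0.0475), with a filter of 1 CPM (0.03898), with upper-quartile scaling (0.0494) and with limma-voom (0.0254). ERO1A, an oxidase of disulphide formation in the endoplasmic reticulum, had 23.7, 29 and 33.5 FPKM in Pep2-E3, against 27.4, 29.6 and 26.9 FPKM in MDA-MB-231. ANKRD37, a small ankyrin protein, had 0.384 to 0.881 FPKM in Pep2-E3, against 0.342 to 0.597 FPKM in MDA-MB-231. The groups overlapped in both genes, with 95% intervals of -0.25 to 0.31 for ERO1A and -0.12 to 0.58 for ANKRD37. The ERO1A log2 fold change was 0.03 ± 0.12, and 0.15 ± 0.07 without Pep2-E3 replicate 1 (adjusted p = 0.154). ANKRD37 averaged 31.0 fragments per Pep2-E3 library and 20.3 per MDA-MB-231 library, and 35.2% of its exon bases overlap UFSP2 on the opposite strand.

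**Figure D3:**
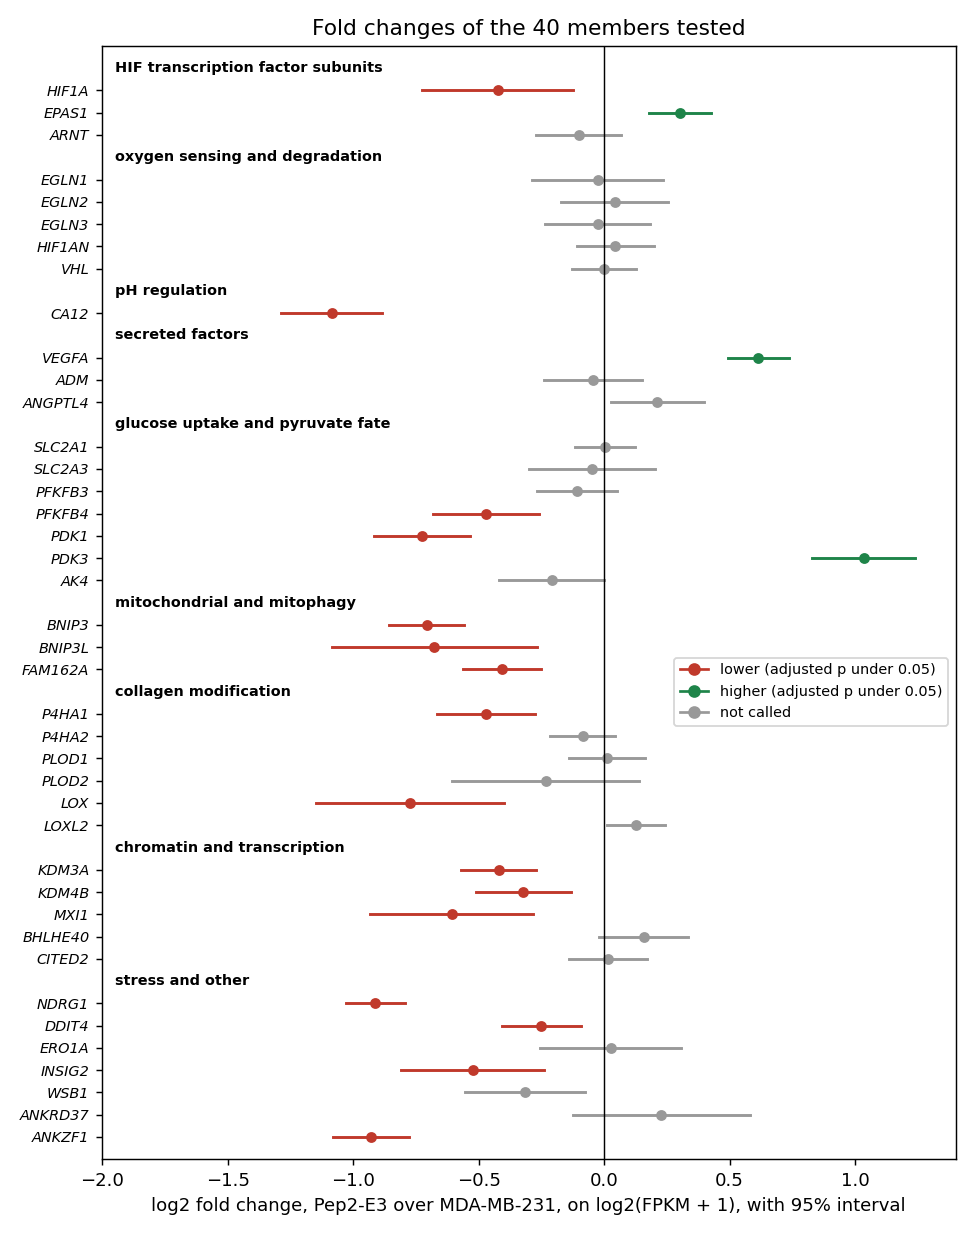
Log2 fold change of Pep2-E3 over MDA-MB-231 on log2(FPKM + 1) for the 40 tested members, grouped by role, with 95% intervals from limma and colours for the call at adjusted p under 0.05. Red points (16 lower) run from CA12 at -1.08 to DDIT4 at -0.25, and the green points are EPAS1, VEGFA and PDK3.

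The 15 targets that fell stood at 28.7% (CA12) to 82.2% (DDIT4) of the parental mean, with a median of 62.3%, and 4 of them were under 50% (CA12, PDK1, NDRG1 and ANKZF1). In 18 of the 40 tested members all Pep2-E3 values lay below all parental values, against 26% of all genes tested. In 5 they lay above, against 22.8% of all genes. With a further threshold of 2-fold on the fitted scale, 1 member was lower (CA12) and 1 higher (PDK3), against 0.794% and 0.548% of all genes. PDK3 passed the filter on low values only through Pep2-E3, so it had to be higher to be counted here and among the 3 higher members. Of the 19 called members, 13 kept their call under all 17 alternatives, 10 lower and 3 higher. The 10 were CA12, PFKFB4, PDK1, BNIP3, FAM162A, P4HA1, LOX, KDM3A, NDRG1 and ANKZF1. Of the 21 members not called, 17 were called under no alternative, the others being PFKFB3, AK4, LOXL2 and WSB1. The 3 higher members were called in every alternative, when the share of all genes called higher was 9.58% with the replicate block, 19.9% with the GC and length correction (when LOXL2 joined them), 9.85% without Pep2-E3 replicate 2, and 8.96%, 8.25% and 9.53% without replicate 1, 2 or 3 of MDA-MB-231. The members called lower then numbered 14 (11.3% of all genes) with the block, 16 (18%) with the correction and 12 (11.1%) without Pep2-E3 replicate 2.

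In 8 of the 40 tested members, Pep2-E3 replicate 1 lay at least 0.3 (log2) below the mean of replicates 2 and 3. These were HIF1A, EGLN1, BNIP3L, PLOD2, LOX, MXI1, ERO1A and INSIG2. Their GC content ran from 34.4% (PLOD2) to 44.2% (EGLN1), below the median of 47.8% over all genes tested. Of these 8, 5 were called lower, and each of the 5 was also called lower without that library. MXI1 was then at -0.45 ± 0.07 (adjusted p = 0.00532). In the other 32 members 11 were lower, including NDRG1, CA12, PDK1, ANKZF1 and BNIP3. Over all genes tested 16.2% were lower, but these genes were not split by this deviation. Neither count thus has a matched share beside it.

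**Figure D4:**
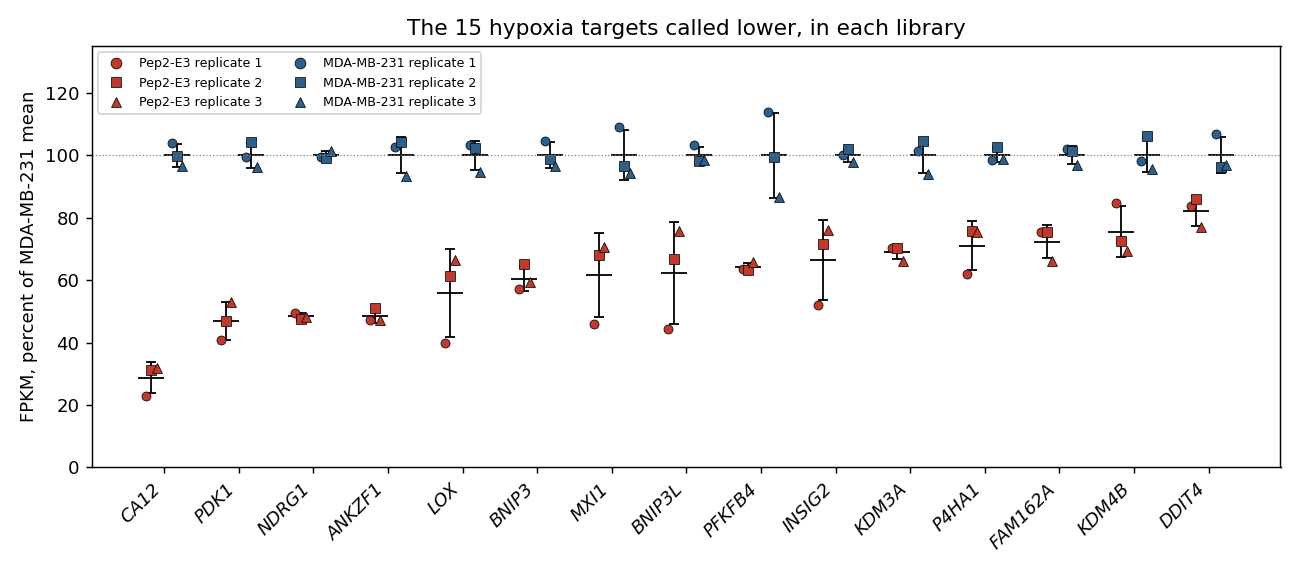
FPKM in each library as a percent of the MDA-MB-231 mean for the 15 targets called lower, Pep2-E3 (red) left of MDA-MB-231 (blue), with symbols for replicates, bars for the mean and SD of 3 libraries and a dotted line at 100%. Every Pep2-E3 value lies below every MDA-MB-231 value of its gene, and Pep2-E3 replicate 1 is set low in LOX, MXI1, BNIP3L and INSIG2.

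Each member was also set beside its neighbours along the chromosome, the 20 tested genes on each side. The median log2 fold change of such neighbours lay between -0.33 and 0.16 for 95% of tested genes. NDRG1 was outside this range, at -0.40, and 22 of its 40 neighbours were lower and 1 higher. NDRG1 itself was at -0.91. The fall of NDRG1 and that of its segment cannot be told apart by these values alone, and the part of gene copy number was not tested. HIF1A and ERO1A, both on chromosome 14, were outside the range on the other side, at 0.18 and 0.25. HIF1A ran against its neighbours, of which 11 were higher and 2 lower. KDM3A had neighbours at -0.22, with 17 of 40 lower. The medians for the neighbours of CA12, PDK1, PDK3, BNIP3, VEGFA, EPAS1 and ANKZF1 lay between -0.04 and 0.10. Of the 40 neighbours of VEGFA, however, 13 were higher and 5 lower. Over all genes tested, 14.6% were higher and 16.2% lower.

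**Figure D5:**
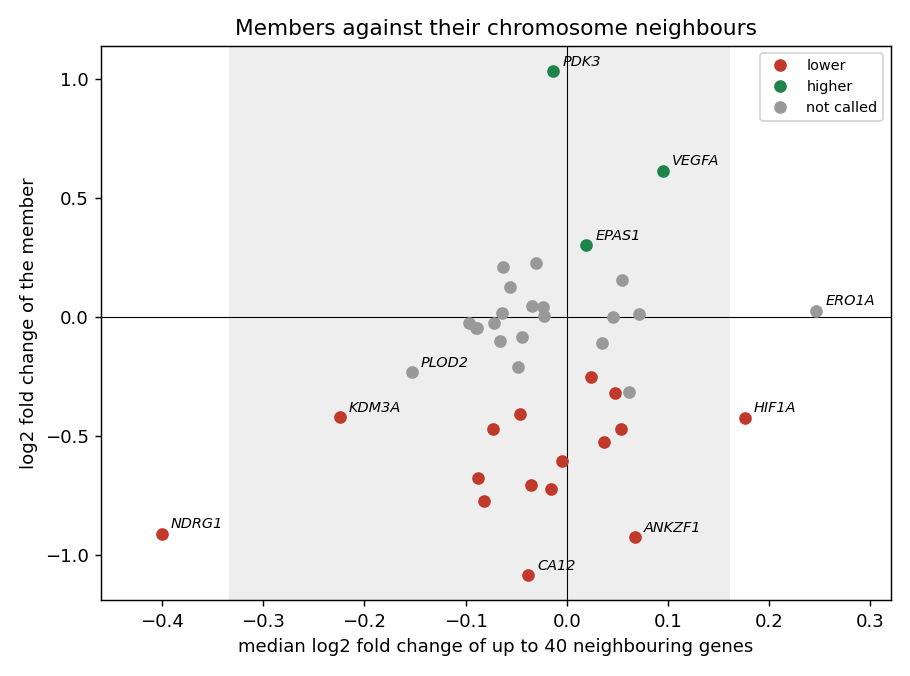
Log2 fold change of each of the 40 tested members (vertical axis) against the median log2 fold change of up to 40 neighbouring tested genes (horizontal axis), with colours for the call and grey shading for the range that holds 95% of tested genes. NDRG1 lies left of the shading, and HIF1A and ERO1A lie right of it.

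A further list of 40 genes known to be induced by hypoxia was read beside the members. This list and the glycolytic list below were chosen with earlier results of these data known, so they give no independent check. Of its 36 tested genes, 18 were lower and 5 higher, against 16.2% and 14.6% of all genes tested, with a median log2 fold change of -0.21. The 5 higher are near the share of all genes. The smallest p-values among those lower belonged to ERRFI1, a feedback inhibitor of EGFR, which averaged 65.5 ± 2.21 FPKM in Pep2-E3 and 94.5 ± 1.85 FPKM in MDA-MB-231 (-0.52 ± 0.04, adjusted p = 0.000697), and STC1, a secreted glycoprotein, which averaged 3.602 ± 0.254 FPKM in Pep2-E3 and 6.67 ± 0.235 FPKM in MDA-MB-231 (-0.74 ± 0.06, adjusted p = 0.0008). Higher were TGFA, a ligand of EGFR, at 7.603 ± 0.413 FPKM in Pep2-E3 and 5.71 ± 0.0922 FPKM in MDA-MB-231 (0.36 ± 0.06, adjusted p = 0.00539), and the AP-1 subunit FOSL2 at 27.8 ± 2.04 FPKM in Pep2-E3 and 20.8 ± 0.832 FPKM in MDA-MB-231 (0.40 ± 0.07, adjusted p = 0.00556). The glycolytic list held 16 genes known to be induced by HIF, including the lactate exporter SLC16A3. The aldolase ALDOA lay below the limit for testing, at 0.307 FPKM in Pep2-E3 and 0.416 FPKM in MDA-MB-231. Of the 15 tested, 5 were lower and 0 higher by limma-trend, with a median of -0.14. At an unadjusted p under 0.05, 7 were lower and 0 higher, against 22.8% and 20.3% of all genes tested. Limma-voom called 6 lower and 0 higher, against 18.1% and 15.3% of all genes. Hexokinase 2 (HK2) was at -0.62 and the aldolase ALDOC at -0.86 on the log2 scale (adjusted p = 0.00094 and 0.00156). The abundant enzymes differed in their calls. GAPDH and ENO1 did not pass (0.14 ± 0.06 and -0.07 ± 0.06). LDHA and PGK1 were lower (-0.24 ± 0.04 and -0.29 ± 0.04, adjusted p = 0.00828 and 0.0045).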

How the data were processed

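Expression was measured by RNA sequencing in 3 Pep2-E3 and 3 MDA-MB-231 libraries, grouped by their titles. Per the labels' protocols, Trizol was used for the RNA and a NEBNext Ultra kit for the libraries. This kit does not mark strand. Per the submitters' processing notes, the tools included HTSeq version 0.6.0, HISAT2 version 2 and Bowtie2 version 2.2.3, and the build was mm8, a mouse build. The identifiers are human, and all 30099 are in GENCODE release 29 (GRCh38). Per the file headers, the authors deposited FPKM, 1 table per library, and how reads in overlapping genes were counted is not given in the sources used here. FPKM multiplied by exon length and library total gave whole fragments within 0.001 for 100% of 180594 values.

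The test was limma-trend (limma 3.58.1, R 4.3.3) on log2(FPKM + 1), with group as the only term, for 14235 genes with a mean of at least 0.5 FPKM. P-values were adjusted over all of them by Benjamini-Hochberg at 0.05. The fit was also run on simulated counts with a single dispersion of 0.003 and no GC trend. That check therefore does not cover a library like Pep2-E3 replicate 1. Folds are ratios of mean FPKM. The 42 members, the further lists and the rule for naming genes (all members; in further lists the smallest p-values in each direction) were chosen with earlier results of these data known. GAPDH, ENO1, LDHA, PGK1, LIMD1 and the VHL complex partners were named after their values were seen. The labels do not say whether replicate numbers pair libraries, and no pairing was used in the main fit. Same-numbered libraries had deviations correlated at -0.042, 0.0383 and -0.0609. Pep2-E3 replicate 1 and MDA-MB-231 replicate 3 had 0.0873. The GC trend of Pep2-E3 replicate 1 could hide a shared deviation, so these values do not exclude pairing.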

Additional observations from a re-analysis of the deposited data

How the results depend on the processing

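Over 17 alternatives the members called higher stayed at 3 or 4. The members called lower numbered 10 without a filter, when 6% of 30099 genes were lower, and 16 or 17 under other pseudocounts, scalings, a filter of 1 CPM, limma-voom, the GC correction or robust variances. With the replicate block, 14 members were lower and 3 higher, and 2966 genes were called, against 4383 without it. Deviations of same-numbered libraries were correlated at -0.042, 0.0383 and -0.0609, which does not exclude pairing. Leaving out 1 library at a time gave 10 to 17 members lower, always 3 higher, and 2471 to 4866 genes called. No member's call reversed. Of 680 comparisons of a member with its value under an alternative, 642 kept their side of the threshold, 31 lost it and 7 gained it. The 6 members that lost a call under some alternative, all of them without a filter among others, were HIF1A, BNIP3L, KDM4B, MXI1, INSIG2 and DDIT4. The cause was not tested. Depth limits CA9, STC2 and ANKRD37, and a missed threshold does not show that a gene was equal in both groups.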
